A study of Chlorocebus sabaeus with 10 samples.

Results

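The late-named miRNAs described here are those whose names have the form miR-N with N of 3000 or more and that had at least 1 read in the livers of vervet monkeys. They were selected on their pooled read count, so their detection and abundance are given as a description and carry no test. Of 2588 mature miRNA names in the count table, 1442 (55.7%) had a number of 3000 or more, from 3064 to 9500. Reads were found for 83 of these, and 1359 had 0 reads. The names below 3000, of which there were 1128 with 2909 as the highest number, served as the comparison, while the 18 let-7 names carry no such number and were kept apart.

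Small RNA sequencing was done on livers of 10 female vervet monkeys (Chlorocebus sabaeus), 5 fed a high fructose (HFr) diet and 5 fed chow, all of which had eaten chow beforehand. The library columns of the table bear running numbers that match no animal label, so no diet could be assigned to any of them. The authors' total over all libraries was used instead, and every value below is such a pooled read count, with no spread between animals and no comparison of HFr with chow. Intervals are 95% intervals that cover counting error alone and treat reads as independent. Reads amplified by PCR are not independent molecules, so these intervals can be too narrow. The pool, summed over all names, held 2043164 reads, 45.2% of them from miR-122-5p, the miRNA that marks hepatocytes. Some names had equal counts, such as miR-199a-3p and miR-199b-3p with 22258 reads each. The same reads can therefore enter this sum more than once, and it is not a number of sequenced reads.

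A miRNA is cut from a hairpin precursor, and its mature strand guides the silencing complex to messenger RNAs that pair with bases near its start. Names are numbered roughly in the order of registration. The abundant and widely conserved miRNAs were cloned early and have low numbers, whereas most names above 3000 entered the database from deep sequencing of human samples. Many such late names are specific to primates, lie in short introns, repeats or genes of other RNA classes, or rest on few reads. All names in the table are human, so a vervet miRNA whose sequence differs from the human one can be missed. A count of 0 here cannot tell a silent gene, an absent gene and a diverged sequence apart.

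The late-named miRNAs took up most of the names and very few of the reads. Together the 83 members had 1543 reads, or 0.0755% of the pool (Wilson interval 0.0718 to 0.0794%), against 1714819 reads (83.9%) for names below 3000. Reads were found for 5.76% of the late names (83 of 1442, Wilson interval 4.67 to 7.08%), against 51.3% of the names below 3000 (579 of 1128, interval 48.4 to 54.2%). The members made up 12.2% of all names with reads. These intervals show what the number of names allows and are no test, because names are not replicates and the members were defined by having reads.

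Members also had fewer reads than detected names below 3000. The median was 2 reads for members, with quartiles of 1 and 6, and 26 reads for detected names below 3000, with quartiles of 4 and 210, a 13-fold difference. At least 10 reads were found for 13 members (15.7% of the members, 0.902% of all late names), against 376 names below 3000 (64.9% of those with reads). At least 100 reads were found for 3 members, against 191 names below 3000. No member reached 1000 reads, a depth that 78 names below 3000 met. The classes overlapped: 81.3% of the detected names below 3000 lay above the median of the members and 16.6% lay above the most abundant member. The plot of the share of names by minimum depth shows the distance between the classes at every threshold up to the highest member.

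**Figure D1:**
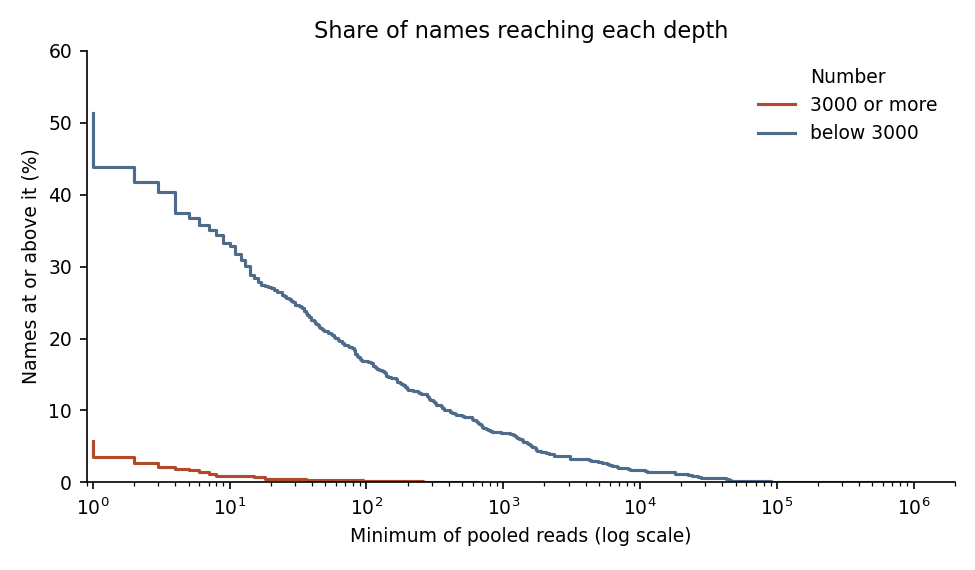
Share of names (y axis, percent of all names of the class) with at least the number of pooled reads on the x axis (log scale), for names with a number of 3000 or more and below 3000. At 1 read the lines start at 5.76% and 51.3%, and at 10 reads they are at 0.902% and 33.3%.

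The decline of detection with the number did not begin at 3000. Reads were found for 57.9% of the 922 names from 1 to 999, for 23.6% of the 178 names from 1000 to 1999 and for 10.7% of the 28 names from 2000 to 2999 (3 names, interval 3.71 to 27.2%). The late names began at a like level, with 9.93% of the 282 names from 3000 to 3999 (28 names, interval 6.96 to 14.0%). Above that, detection was 5.93% of 506 names in the 4000s, 7.76% of 116 names in the 5000s and 3.04% of 427 names in the 6000s (interval 1.79 to 5.14%). The 7000s held 2 detected names of 71, the 8000s 1 of 39, and the only name above 9000 had 0 reads. Intervals of neighbouring bands from 2000 to 5999 overlapped, while that of the 6000s lay below that of the 3000s. Names are not replicates and detection is the rule that chose the members, so this is a description and no test of a decline.

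**Figure D2:**
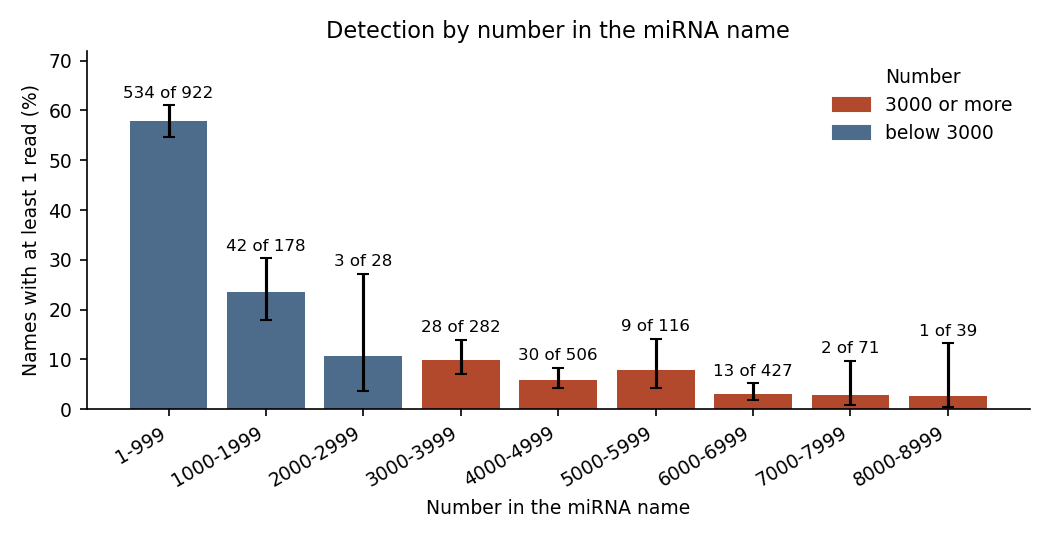
Share of names with at least 1 pooled read (y axis, percent) by band of the number in the miRNA name (x axis). Whiskers are 95% Wilson intervals, and the labels give detected names of all names in the band, from 534 of 922 in the lowest to 1 of 39 in the 8000s, with the single name above 9000 not drawn.

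Within the members the number showed little rank correlation with the pooled reads. Across the 662 numbered names with reads, Spearman's rho between number and pooled reads was -0.48, and across the 83 members it was -0.08. All points come from the same pooled libraries, and the correlations are given as a description. Names with 0 reads were left out and 33 of the 83 members were tied at 1 read, which limits what the rho of the members can show. The median was 3 reads for the 28 detected names of the 3000s, 2 reads for the 30 of the 4000s, 5 reads for the 9 of the 5000s and 1 read for the 13 of the 6000s. Names of the 5000s nevertheless held 440 member reads, most of them from miR-5585-3p and miR-5096, while those of the 3000s held 746, of which 640 came from a single name.

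**Figure D3:**
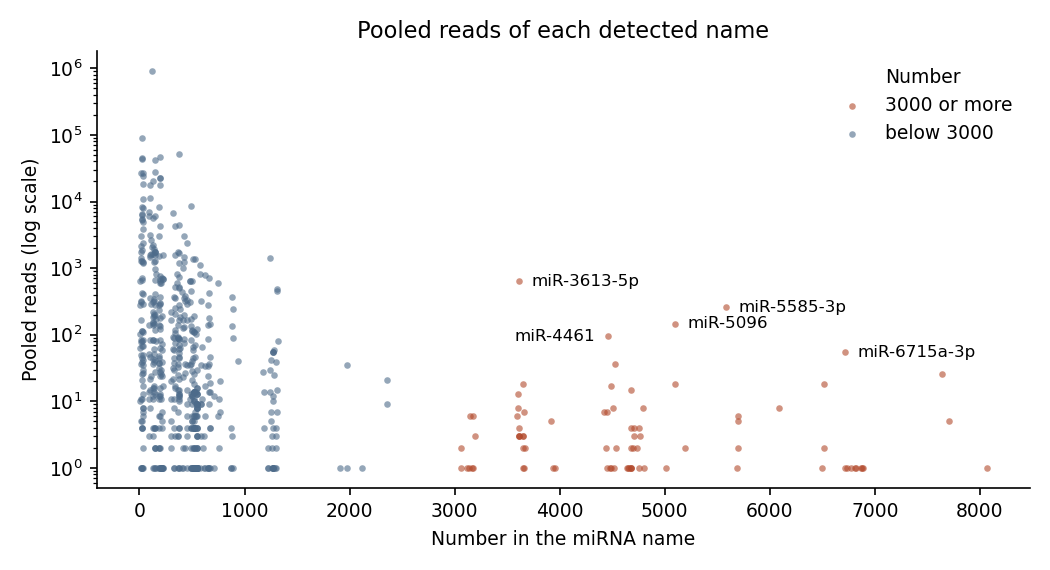
Pooled reads of each detected name (y axis, log scale) against the number in its name (x axis), for 83 names with a number of 3000 or more and 579 names below 3000. The 5 most abundant late names are labelled, from miR-3613-5p at 640 reads to miR-6715a-3p at 55.

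A few members held most of the reads. miR-3613-5p had 640 reads (exact Poisson interval 591 to 692), which is 313 per 1000000 reads of the pool and 41.5% of all member reads. In human its gene lies in the chromosomal region of mir-15a and mir-16-1, a locus often lost in leukaemia. It ranked 105th of all names, between miR-7-5p with 642 reads and miR-199a-5p with 635. The mature miRNAs of the neighbouring genes were more abundant, with 1397 reads of miR-15a-5p and 26518 of miR-16-5p, the last of which is also made from another locus. The members miR-5585-3p, with 259 reads (interval 228 to 293), and miR-5096, with 146 reads (interval 123 to 172), followed. These 3 names held 67.7% of the member reads and the first 10 held 85.0%.

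Ratios between neighbours in the order are given with their counting intervals as a description, since the order was set by the same counts. miR-3613-5p exceeded miR-5585-3p by 2.47-fold (exact binomial interval 2.14 to 2.87), and miR-5585-3p exceeded miR-5096 by 1.77-fold (interval 1.44 to 2.19). miR-5096 exceeded miR-4461 (95 reads) by 1.54-fold (interval 1.18 to 2.01). miR-4461 in turn exceeded miR-6715a-3p (55 reads) by 1.73-fold (interval 1.23 to 2.45). From there on the differences between neighbours were within counting error, and ratios of names further apart were not computed. The interval of the ratio included 1 for miR-6715a-3p over miR-4524a-3p (36 reads), at 0.986 to 2.39, and for each following pair down to miR-3607-3p.

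**Figure D4:**
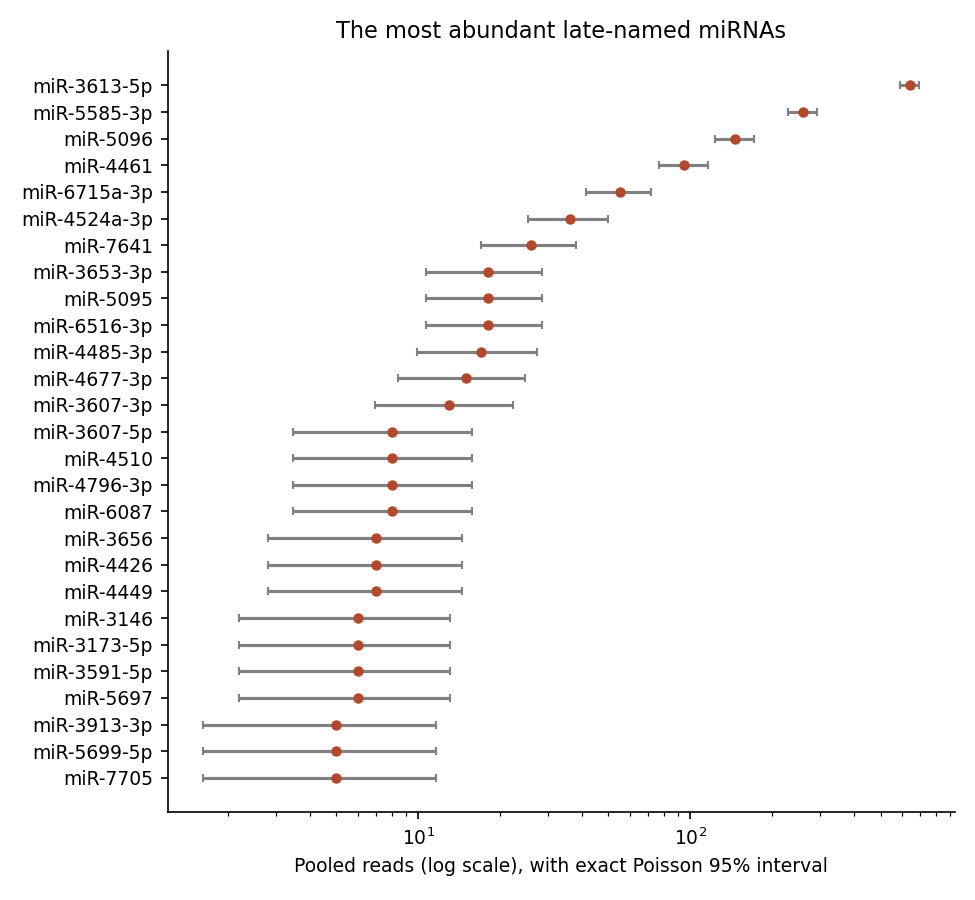
Pooled reads (x axis, log scale) of the 27 most abundant late-named miRNAs, with exact Poisson 95% intervals. The intervals of the first 5 do not overlap, from 591 to 692 reads for miR-3613-5p to 41.4 to 71.6 for miR-6715a-3p, and from miR-6715a-3p downward those of neighbours overlap.

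Several leading members are known in human to match Alu repeats, short mobile elements present in very many copies in primate genomes. These are miR-5585-3p, miR-5096 and miR-5095 (18 reads), a set put together after its values were seen. Together they had 423 reads, 27.4% of the member reads. Some names below 3000 with the same kind of origin, also picked after their values were seen, were present as well. miR-619-5p had 779 reads, 3.01 times as many as miR-5585-3p (interval 2.61 to 3.48). Reads were found for 8 of the 9 miR-1273 names, 195 in all, against 51.3% of all names below 3000. A full list of repeat-matching names was not made, so these names do not show how often such names had reads. The passenger strand name miR-5585-5p had 0 reads. How many of these reads came from repeat-containing transcripts and not from a miRNA hairpin was not tested.

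A further list held names that in human lie in or match genes of other RNA classes. Of its 14 names 13 could be matched, and 10 of them had reads, against 5.76% of all late names. These 10 had 184 reads in all, or 11.9% of the member reads. The list was chosen with earlier results of these data known, so the count is a description. Names that match mitochondrial RNA led, with 95 reads of miR-4461 (interval 76.9 to 116), 17 of miR-4485-3p and 1 of miR-4485-5p, whereas miR-6723-5p had 0. Small nucleolar RNA names, whose host RNAs guide the chemical modification of other RNAs, followed with 18 reads of miR-3653-3p, 2 of miR-3653-5p, 13 of miR-3607-3p, 8 of miR-3607-5p and 1 of miR-3651. Of the ribosomal RNA names, miR-7641 had 26 reads and miR-3648 had 3, while miR-3687 had 0. The transfer RNA name miR-4454 had 0 reads. The limit set for a count of 0 was 3 reads or 1.47 per 1000000 reads of the pool, while the exact Poisson interval reached 3.69 reads. miR-3676 was not analysed here. Whether fragments of those RNAs gave the reads was not tested.

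The listed hairpins on the strand opposite a well-known miRNA had very few reads, as did most late names. Their names with reads had 6, 2 and 1, against a median of 2 for all members, with quartiles of 1 and 6. In human mir-3591 lies on the strand opposite mir-122, and miR-3591-5p had 6 reads (interval 2.20 to 13.1) and miR-3591-3p had 0, against 924591 reads of the mir-122 arms, a ratio of 6.49 to 1000000. miR-3065-5p, opposite mir-338, had 2 reads and miR-3065-3p had 0, against 17 of miR-338-3p and 3 of miR-338-5p. miR-3120-3p, opposite mir-214, had 1 read and miR-3120-5p had 0, against 711 of miR-214-3p and 39 of miR-214-5p. Both arms of mir-3074, opposite mir-24-1, had 0 reads, against 8151 of miR-24-3p, which is shared with another hairpin, and 39 of miR-24-1-5p. Both arms of mir-3529, opposite mir-7-2, had 0 reads, against 642 of miR-7-5p, also shared with other hairpins, and 0 of miR-7-2-3p. In all, 3 of these 10 late names had reads, 9 reads together, against 5.76% of all late names, and this list too was chosen with earlier results known.

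In a list drawn up for late names beside classic hairpins, reads were found for 2 of the 9 names, both of them arms of mir-3613, against 5.76% of all late names. The list was chosen with earlier results of these data known, and nothing particular to it is read from the count. The arms of mir-4732, which in human lies next to the erythroid hairpins mir-144 and mir-451a, had 0 reads, against 664 of miR-144-5p and 2366 of miR-451a. miR-3618, which in human shares the DGCR8 gene with mir-1306, had 0 reads, against 15 of miR-1306-5p and 7 of miR-1306-3p. The arms of mir-3677 had 0 reads, as did its neighbour miR-940. Both arms of mir-4662a, which were on the list although no classic neighbour was recorded for them, had 0 reads as well.

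Both arms of a late-named hairpin were seldom found. Of 465 late hairpins with both arms named, 43 had reads (9.25%), and both arms had reads in 8 of these (18.6%). Of 457 hairpins numbered below 3000, 338 had reads (74.0%), and both arms had reads in 210 (62.1%). Depth differs between the classes, and among hairpins with 2 to 99 reads both arms were found in 7 of 24 late hairpins (29.2%), against 63 of 145 numbered below 3000 (43.4%). Reads per hairpin were not matched within this band, so depth can still differ and nothing beyond it is read from these shares. Copies of a hairpin were counted separately, as for mir-3913 and mir-4536, whose copies had equal totals. The 8 late hairpins were mir-3607, mir-3613, mir-3614, mir-3653, mir-4485, mir-4677, mir-4680 and mir-6516.

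Arm use was uneven in most hairpins where it could be measured. Among the hairpins below, mir-5585 holds an Alu-matching name, and mir-3607, mir-3653 and mir-4485 hold names listed under other RNA classes. Whether their reads came from miRNA strands or from fragments of such RNAs was not tested. In mir-3613 the 5p arm held 640 of 644 reads, or 99.4% (exact binomial interval 98.4 to 99.8%). In mir-5585 all 259 reads were on the 3p arm, which allows at most 1.41% on the other (upper bound of the exact interval). The 3p arm also held all 36 reads of mir-4524a, and the names of its sister hairpin mir-4524b had 0 reads. Likewise miR-6715a-3p had 55 reads and both miR-6715b names had 0. mir-3653 and mir-6516 gave 2 reads each from the 5p strand and 18 each from the 3p strand, so that 5p reads were 10% of the hairpin (interval 1.23 to 31.7%). For mir-3607 no arm dominated: miR-3607-5p had 8 reads and miR-3607-3p 13, and the interval of the 5p share (38.1%, 18.1 to 61.6%) included equal use. With fewer reads, mir-4485 (1 and 17), mir-4677 (2 and 15) and mir-4680 (1 and 4) also had more reads on the 3p than on the 5p arm, and mir-3614, which in human lies within TRIM25, had 3 on each.

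**Figure D5:**
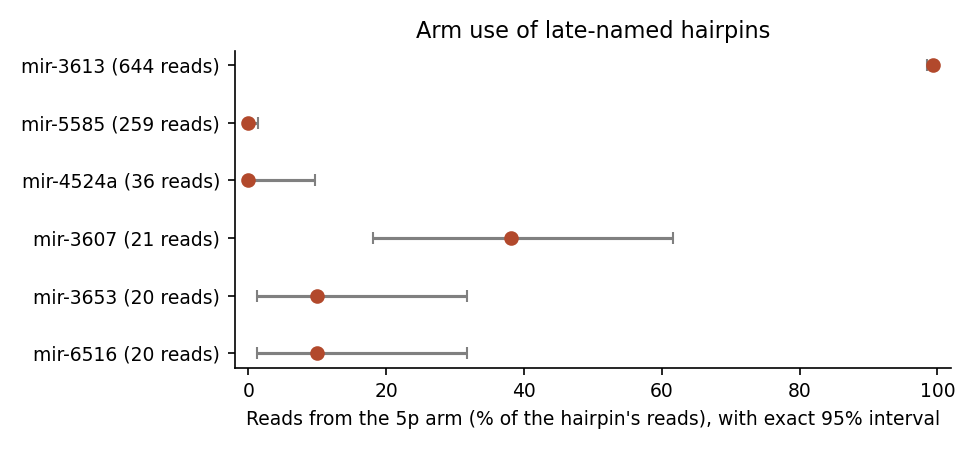
Share of reads from the 5p arm (x axis, percent of the reads of the hairpin) in the 6 late-named hairpins that had at least 20 reads and a name for each arm, with exact binomial 95% intervals. mir-3613 lies at 99.4%, mir-3607 at 38.1% and the other 4 at 10% or below.

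The arm label itself divided the members evenly. A 5p name was detected for 28 of 451 late names (6.21%), a 3p name for 23 of 451 (5.10%) and a name with no arm label for 32 of 540 (5.93%). Among names below 3000 the last kind stood apart, with 23.8% of 281 names detected, against 63.8% of 420 5p names and 57.1% of 427 3p names. The 3p members had a median of 4 reads, those with no arm label 2.5 and the 5p members 1.5, although the 5p group included the most abundant member.

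Most of the remaining members rested on a handful of reads. Of the 83 members, 70 (84.3%) had fewer than 10 reads. Beyond those given above, miR-6516-3p had 18 reads and miR-4677-3p 15. miR-4510, miR-4796-3p and miR-6087 had 8 reads each, and miR-3656, miR-4426 and miR-4449 had 7 each. miR-3146, miR-3173-5p, miR-5697 and miR-3591-5p had 6 each (interval 2.20 to 13.1), and miR-3913-3p, miR-5699-5p and miR-7705 had 5 each. A further 4 members had 4 reads, namely miR-3613-3p, miR-4680-3p, miR-4709-5p and miR-4751. The 8 members with 3 reads were miR-3190-3p, miR-3609, miR-3614-5p, miR-3614-3p, miR-3648, miR-3652, miR-4707-3p and miR-4766-5p. The 11 members with 2 reads were miR-3065-5p, miR-3653-5p, miR-3674, miR-4446-3p, miR-4536-5p, miR-4677-5p, miR-4700-3p, miR-4733-5p, miR-5190, miR-5698 and miR-6516-5p.

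Just inside the threshold of 1 read stood 33 members (39.8%), and just outside it stood the 1359 late names at 0. Late names made up 27.7% of the 119 names with exactly 1 read, 31.4% of the 35 with 2, 34.8% of the 23 with 3 and 10.5% of the 38 with 4, although they made up 12.2% of all detected names. The first 10 members at 1 read in order of number were miR-3064-5p, miR-3120-3p, miR-3140-3p, miR-3164, miR-3174, miR-3651, miR-3662, miR-3934-5p, miR-3960 and miR-4452. In human mir-3064 lies within DDX5, a helicase gene. By band, 9 of the 33 belonged to the 3000s, 12 to the 4000s, 2 to the 5000s, 9 to the 6000s and 1 to the 8000s (miR-8072). In the 6000s, where many names were annotated as mirtrons, hairpins formed by a whole short intron, 9 of the 13 detected names had 1 read. One of them was miR-6891-5p, which in human comes from an intron of HLA-B. A single read has an exact Poisson interval of 0.0253 to 5.57 reads.

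The low counts of the members set how many of them a shallower pool would hold. If 50% of the reads were drawn without replacement, 62.3 of the 83 members would be expected to keep a read (75.1%), against 526 of 579 names below 3000 (90.9%). At 10% of the reads the expectation was 27.7 members (33.4%), against 408 names below 3000 (70.6%). These expectations are computed from the same pooled counts that chose the members, so they restate those counts.

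Several precursor rows were present for 81 late names, of which 4 had reads, a share close to the 5.76% of all late names: miR-7641 (26), miR-3913-3p (5), miR-3648 (3) and miR-4536-5p (2). Each of the 4 had the same total on both of its rows. The 21 late names with 3 or more rows, up to 6, had 0 reads.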

How the data were processed

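Libraries from liver RNA of 10 animals (5 HFr, 5 chow) were prepared by the authors with a TruSeq small RNA kit. The authors quantified miRNAs with miRDeep2 and deposited raw read counts for 2948 pairs of mature miRNA and precursor, with a total over all libraries. Trimming and alignment tools listed in the submitters' processing notes are cutadapt 1.10 and Bowtie. Genome build and miRNA release: not given in the sources used here. A further 20 columns, raw and normalized values of 10 numbered libraries, match no sample and were not analysed here, so no test between diets was possible and the depth of each library is not given.

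The highest precursor row was kept for each name. Shares have Wilson intervals, single counts exact Poisson intervals, and ratios and arm shares exact binomial intervals (all 95%). Simulated reads were used to test the Poisson intervals and the Wilson intervals of read shares, for names with at least 10 reads only. The ratio intervals were tested on simulated counts. Intervals of lower counts, of shares of names and of arm shares were not tested in this way. For a count of 0 the limit was 3 reads. Named are the 25 most abundant members (27 with ties), the members of 3 lists, hairpins with at least 20 reads on 2 named arms, and 10 members with 1 read. Other members, the Alu set and partner hairpins were named after their values were seen. Members and lists were chosen with earlier results of these data known. Kit ligation favours some sequences, so reads are not molecules. Alternatives were minimums of 5 and 10 reads, boundaries at 2000 and 4000, summed precursor rows, identical names of 1 arm counted once, let-7 counted with the names below 3000, the total without miR-122-5p and leaving out the most abundant member. The vervet gene table used here lists 0 genes of type miRNA. Computations used Python 3.11.15, SciPy 1.17.1 and pandas 2.3.3.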

Additional observations from a re-analysis of the deposited data

How the results depend on the processing

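Late names were detected less often than names below 3000, with a lower median, under each alternative for which detection and medians were computed, which leaves out those without miR-122-5p or without the most abundant member. At a minimum of 5 reads 27 members were left, 1.87% of the late names against 37.5% of the names below 3000, with medians of 8 and 79 reads. At a minimum of 10 reads 13 were left, 0.902% against 33.3%, with medians of 26 and 109 reads. With the boundary at 4000 there were 55 members, 43.0% of the lower names were detected and the members' share of reads was 0.0390%. That share was 0.0591% with precursor rows summed, 0.138% without miR-122-5p in the total and 0.0442% without miR-3613-5p. Summing rows moved 1 of the 27 named members beyond its interval, miR-7641, to 52 reads. Counting identical names once removed 14 names, of which 0 were members. Chosen after seeing the data were the names below 3000 with an accession no lower than the lowest late one (37.9% detected, median 5.5 reads) and those with a lower accession (55.2%, median 39 reads). The other alternatives left shares within their intervals and counts and medians within 1.5 times. Leaving out a library and another normalization were not run, since the library columns match no sample and were used in no step. No paired analysis was possible because no library could be tied to an animal. At 1 read, detection cannot tell 1 true molecule from a misassigned read.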

Other observations

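The number in a name is only a rough guide to when the name was registered, since new arms and family members keep the number of their hairpin or family. The values here were chosen after the data were seen. Of the names below 3000, 253 had a mature accession no lower than the lowest of the late names. Reads were found for 96 of them (37.9%, Wilson interval 32.2 to 44.1%), with a median of 5.5 reads, against 83 of the 1442 late names (5.76%, interval 4.67 to 7.08%) with a median of 2. The 875 names below 3000 with a lower accession had reads in 483 cases (55.2%, interval 51.9 to 58.5%), with a median of 39. The miR-548 family, a primate family that arose from a mobile element and has many late letters under an early number, had reads for 34 of 80 names (42.5%), at most 16 reads each and 190 in all. Without this family, 70 of 194 names below 3000 with a late accession had reads (36.1%). Why these shares differ was not tested.

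The late-named miRNAs included no close match in depth to the abundant liver miRNAs. The names below 3000 with more reads than miR-3613-5p numbered 96.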
